A study of Mus musculus with 4 samples.

Results

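Re-expression of mouse PRDM14 in mouse embryonic stem cells that lack Prdm14 was examined by setting the array labelled mouse PRDM14 against the array labelled empty vector. These are 2 of the 4 arrays of the study. All cells were Prdm14 knockout mouse embryonic stem cells, grown in medium with leukemia inhibitory factor and the 2 inhibitors known as 2i on STO feeder cells, a mouse fibroblast line whose RNA can reach the same array. The other arrays came from cells with sea urchin PRDM14, or with sea urchin PRDM14 and sea urchin CBFA2T, and are given beside the pair as further levels from cells of the same background. How many knockout clones or cultures were used, and which promoter drives the introduced genes, none of the sources used here states. Of 41345 probe sets, 23521 were paired with 1 gene, which gave 22180 genes, and 12042 of these passed a filter on dim values and were compared.

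PRDM14 belongs to the PR domain family of zinc finger proteins and marks naive pluripotent stem cells and primordial germ cells. In these cells it is known to repress the de novo DNA methyltransferase genes and fibroblast growth factor receptor signalling, to recruit Polycomb repressive complex 2, and to act with the co-repressor CBFA2T2. Stem cells without it drift toward primed epiblast and extraembryonic endoderm states in serum, a drift that 2i medium restrains. The comparison addresses what the mouse protein alters in knockout cells held in 2i medium.

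All values are log2 RMA values, so a difference of 1 is 2-fold, a difference of 0.585 is 1.5-fold and a difference of 0.263 is 1.2-fold. Each group had 1 array, so no difference has a replicate error, none could be tested, and genes are described by the size of the difference only. The array medians were within 4.54 to 4.55, and the arrays of the pair correlated at 0.989 over all probe sets. The differences of the 12042 genes had an SD of 0.157 and a median of -0.0053, and the central 68% of them spanned 0.138 on either side. A 1.2-fold difference therefore lay outside the bulk of these genes, but how often repeat arrays of the same cells would differ as much was not measured. In RNA from whole cultures, fewer cells of a type and less RNA per cell cannot be told apart.

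The Prdm14 probe set was at 5.71 on the empty vector array and 5.57 on the mouse PRDM14 array, a difference of -0.14. The sea urchin PRDM14 array was at 5.77 and the array with CBFA2T at 5.53. Prdm14 was thus not higher on the array labelled mouse PRDM14. No source used here gives the position of its probes against the knockout deletion or the transgene. This gene therefore cannot serve as a check of the labels, and each name below stands for the array labelled with it.

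The cultures had the marker genes of embryonic stem cells on both arrays. The mean level of a list of 15 stem cell identity genes was 6.63 with empty vector and 6.70 with mouse PRDM14, and none of the 15 differed by 1.2-fold. Nanog, a core pluripotency factor, was at 9.07 and 8.99, Sox2 at 7.82 and 7.76, and Pou5f1 at 6.54 and 6.61. The list of core pluripotency genes held 20 members past the filter. Of these, 0 were 1.2-fold higher and 1 was lower, L1td1 (7.18 and 6.88), beside 4.07% and 4.28% of all genes. The median of that list was 0.04. Markers of fibroblasts were measured as well. The mean level of the 27 feeder list members past the filter was 5.98 with empty vector and 5.97 with mouse PRDM14. Among them collagen genes went both ways. Col1a1 (5.87 and 5.93) and Col1a2 (5.85 and 6.05) were slightly higher with mouse PRDM14, as were Col5a2, Col6a2 and Col6a3. Col3a1 (5.75 and 5.61), Col5a1 and Col6a1 were slightly lower, as was Thy1 (6.004 and 5.78). Past 1.2-fold, Fn1, the fibronectin gene, was higher (7.79 and 8.09), and Fstl1 (7.43 and 6.96) and Cnn1 (5.75 and 5.39) were lower. Postn and Thbs1 were under the filter value. The mean log2 level of the feeder list was thus about the same on both arrays, while single members differed in either direction.

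Small differences were common and large ones rare. At 1.2-fold, 490 of the 12042 genes (4.07%) were higher with mouse PRDM14 and 515 (4.28%) were lower. At 1.5-fold, 35 (0.291%) were higher and 20 (0.166%) lower. At 2-fold, 7 (0.0581%) were higher and 3 (0.0249%) lower. Most of the 1005 genes past 1.2-fold therefore lay between 1.2-fold and 1.5-fold, 455 of them higher and 495 lower. Of the called genes, 35 higher ones passed the filter only through the mouse PRDM14 array and 31 lower ones only through the empty vector array. Under the filter value lay 102 of the higher genes on the empty vector array and 98 of the lower genes on the mouse PRDM14 array. Itgb1, Rian, Dab2 and Plk2, named below, are among these 98. The shares of 1.2-fold genes were similar across 4 equal classes of brightness, between 3.26% and 5.15% for higher genes and between 3.65% and 5.05% for lower ones.

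**Figure D1:**
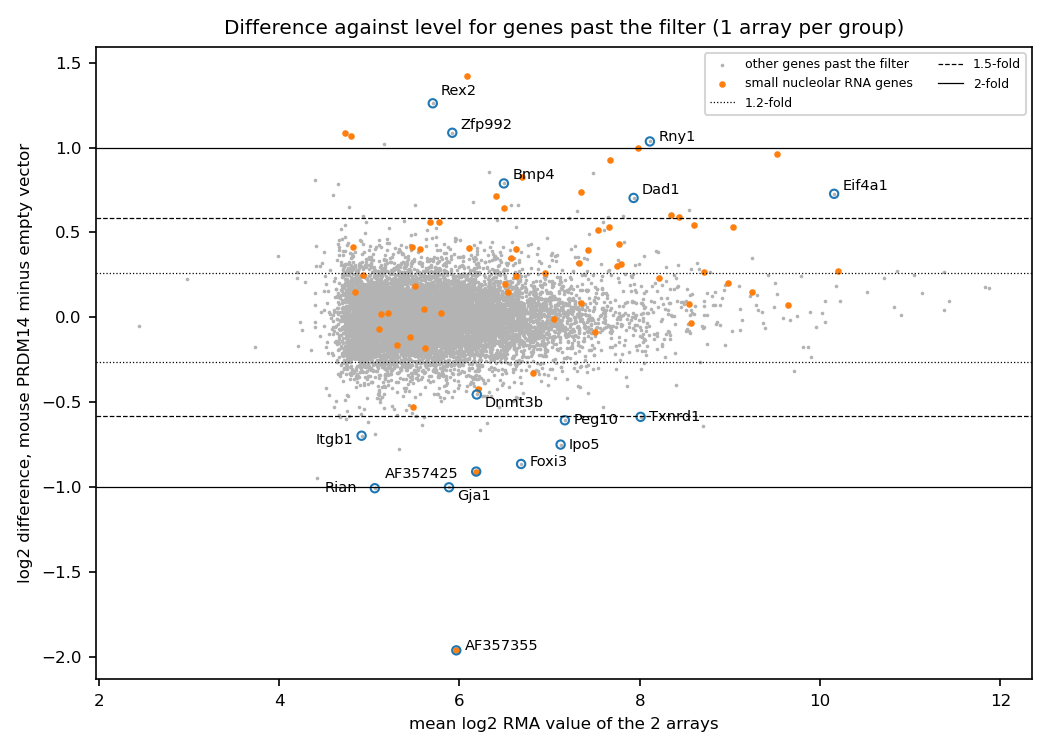
Each point is 1 of the 12042 genes past the filter, with the mean log2 RMA value of the empty vector and mouse PRDM14 arrays on the x axis and the log2 difference, mouse PRDM14 minus empty vector, on the y axis. Lines mark 1.2-fold, 1.5-fold and 2-fold, orange points are small nucleolar RNA genes, and most genes lie within 1.2-fold at all levels, with AF357355 lowest at -1.96.

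The genes through which PRDM14 is known to act on DNA methylation did not share 1 direction. Dnmt3b, a de novo DNA methyltransferase, was at 6.42 on the empty vector array and 5.96 on the mouse PRDM14 array, a difference of -0.46. Dnmt3b was at 6.56 and 6.34 on the sea urchin arrays, so the mouse PRDM14 array was the lowest of the 4. Dnmt3a, the other de novo enzyme, was at 6.14 and 6.16. Dnmt3l, their catalytically inactive cofactor, was at 5.58 and 5.41, a difference of -0.17. It was lower still on the sea urchin arrays, at 5.31 and 5.18. Uhrf1, which brings the maintenance methyltransferase to replicated DNA, was at 7.59 and 7.53.

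Tet1, which oxidises methylated cytosine and so starts its removal, was at 6.01 with empty vector and 6.35 with mouse PRDM14, a difference of 0.34. On the sea urchin arrays it was at 6.17 and 5.9985, which left the mouse PRDM14 array the highest. Tet2 was at 6.25 and 6.21. Gadd45b, a stress gene linked to DNA demethylation, was at 6.35 and 6.62. Over the whole list of DNA methylation and demethylation genes, 2 of 21 members past the filter were 1.2-fold higher and 1 was lower, with a median of -0.06 and 5 members above 0.

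Fibroblast growth factor signalling had members on both sides. Fgfr1, a receptor gene, was at 6.39 with empty vector and 6.11 with mouse PRDM14, a difference of -0.28. It was at 6.49 and 6.65 on the sea urchin arrays, both above the mouse PRDM14 array. Fgfr2 was at 4.21 and 4.27, under the filter value of 4.84. Dusp5, a phosphatase that ERK signalling induces, differed by -0.32 (5.97 and 5.65), and the ephrin receptor gene Epha2 by -0.44 (6.55 and 6.11). Epha2 was at 6.74 with sea urchin PRDM14 alone and at 5.74 with CBFA2T added, so the mouse PRDM14 array lay within the range of the others. Sos1, an exchange factor that activates RAS, was higher by 0.35 (4.83 and 5.18), and Ccnd1, which encodes cyclin D1, by 0.41 (6.13 and 6.54). The list of FGF and ERK genes thus had 2 higher and 3 lower members of 28, with a median of -0.04.

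Polycomb genes also went both ways. Suz12, a core subunit of Polycomb repressive complex 2, was at 6.19 with empty vector and 5.87 with mouse PRDM14, a difference of -0.32. The other core subunit genes hardly differed: Ezh2, the methyltransferase, was at 6.89 and 6.94, and Eed was at 6.31 and 6.37. Suz12 was at 6.96 and 7.19 on the sea urchin arrays, well above both arrays of the pair. Rybp and Yaf2 encode related subunits of Polycomb repressive complex 1. Rybp was higher by 0.41 (6.67 and 7.08), whereas Yaf2 was lower by 0.59 (4.96 and 4.38, the latter under the filter value). Yaf2 passed the filter only through the empty vector array. Phc2, another subunit gene of that complex, was higher by 0.32 (5.39 and 5.71). In all, 2 of 23 members were higher and 2 lower.

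Genes of the protein partners of PRDM14 differed little. Cbfa2t2, which encodes the co-repressor that binds PRDM14, was at 5.42 with empty vector and 5.62 with mouse PRDM14, a difference of 0.19. Ehmt1, a histone H3 lysine 9 methyltransferase gene, was at 5.02 on both arrays. The partner list held 19 members past the filter, with Prdm14 itself counted among them. Of these, Rcor1, a co-repressor scaffold gene, was alone past 1.2-fold (-0.27, from 6.53 to 6.27). Of 14 histone H3 lysine 9 genes none was.

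**Figure D2:**
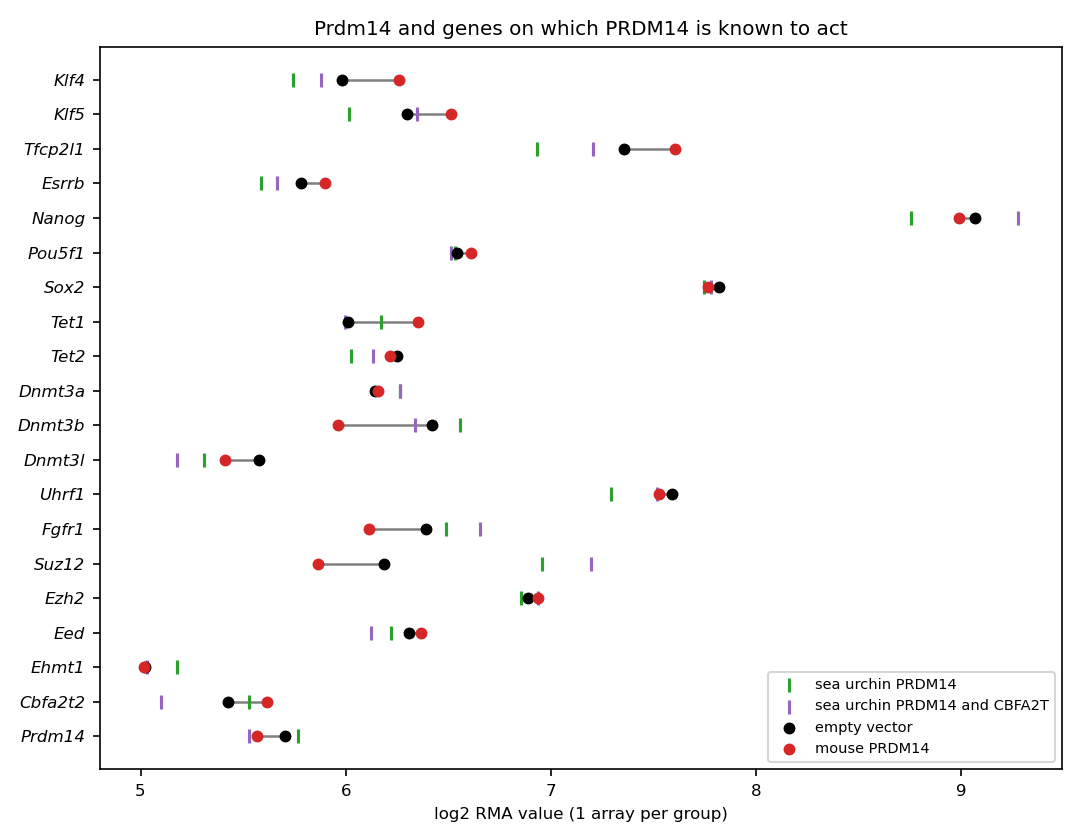
Each line joins the log2 RMA values of 1 gene on the empty vector array (black) and the mouse PRDM14 array (red), with ticks for the sea urchin PRDM14 array and the array with CBFA2T, for Prdm14 and the genes PRDM14 is known to act on or with. Dnmt3b, Fgfr1 and Suz12 lie lower with mouse PRDM14 (differences of -0.46, -0.28 and -0.32), and Tet1 and Klf4 higher (0.34 and 0.28).

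Naive pluripotency genes tended to be higher with mouse PRDM14. Klf4, a transcription factor gene downstream of leukemia inhibitory factor, was at 5.98 with empty vector and 6.26 with mouse PRDM14, above 5.74 and 5.88 on the sea urchin arrays. Tfcp2l1, another such factor gene, was at 7.35 and 7.60, and 6.93 and 7.21 on the sea urchin arrays. For both genes the mouse PRDM14 array was the highest of the 4. Klf5 was at 6.30 and 6.51 and Esrrb at 5.78 and 5.90, differences of 0.22 and 0.12. Not all followed: Klf2 (7.29 and 7.22), Nanog (-0.08) and Dppa3 (6.27 and 6.09), a gene of naive cells and the germline, were slightly lower.

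Past 1.2-fold, the naive list also held Jam2, a junctional adhesion molecule gene (6.998 and 7.27), and Manba, a lysosomal mannosidase gene (6.02 and 6.29). Gbx2 (7.01 and 6.69), Laptm5 (6.47 and 6.08) and Mylpf (6.44 and 6.02) were lower. Gbx2, a homeobox gene that supports self-renewal, had a difference of -0.31 in each of its 2 probe sets past the filter. Over the list of 29 members past the filter, 5 were higher and 3 lower, beside 4.07% and 4.28% of all genes. Above 0 lay 20 of the 29, and the median was 0.12, beside -0.0053 over all genes. Rex2 and Bmp4 are counted in this list and are described below, and without them the median of the remaining 27 was 0.12. Of these 27, 18 lay above 0, but only 3 were 1.2-fold higher, as many as were lower. An upward median of the naive list was already known when the list was drawn up, so it is no independent evidence of a direction.

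The pathway of leukemia inhibitory factor and STAT3 also had more members higher than lower. Pim1 and Pim3 encode serine/threonine kinases that STAT3 induces. Pim1 was at 7.24 with empty vector and 7.58 with mouse PRDM14, while the sea urchin arrays were at 7.22 and 7.28. Pim3 was at 5.69 and 6.10, with 5.73 and 5.80 on the sea urchin arrays. Bcl3, a nuclear IkappaB family gene, was at 5.94 and 6.37, with 5.89 and 6.20. For these 3 genes the mouse PRDM14 array was the highest of the 4. The dimmer second probe set of Pim1 differed by 0.04. Of the kinases next to the receptor, Jak1 was lower (5.81 and 5.53) and Jak2 higher (4.57 and 4.84, both near the filter value). Jak2 passed the filter only through the mouse PRDM14 array, so its place among the higher members is no support for a direction. The receptor genes Lifr (5.14 and 5.21) and Il6st (5.50 and 5.39) and Stat3 itself (6.42 and 6.43) were within 1.2-fold, as was Socs3, a feedback inhibitor gene (5.65 and 5.76). These 4 were chosen for their roles in the pathway after their values were seen. Of 22 members past the filter, 5 were higher and 2 lower, beside 4.07% and 4.28% of all genes. Above 0 lay 14 of them, beside 48.4% of all genes, and the median was 0.09. The list was drawn up with earlier results of these data known. Klf4 and Gbx2 belong to this list and to the naive list.

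Markers of the formative and primed epiblast were lower where they passed 1.2-fold. Lefty2, a secreted Nodal antagonist, was at 6.54 with empty vector and 6.08 with mouse PRDM14, while the sea urchin arrays were at 7.004 and 6.46. Nodal, the ligand itself, was at 5.89 and 5.57, with 5.61 and 5.47 on the sea urchin arrays. The empty vector array was thus the highest for Nodal, whereas the mouse PRDM14 array was the lowest for Lefty2. Enpp3, an ectonucleotidase gene, was at 5.71 and 5.36. With Dnmt3b, these made 4 lower and 0 higher of 24 members, beside 4.28% and 4.07% of all genes. Above 0 lay 8 of the 24, and the median was -0.09. This list too was drawn up with earlier results of these data known. The median of this list ranged from -0.16 to -0.08 over the alternative processing settings.

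Within the Nodal pathway, Smad7, an inhibitory SMAD gene, was also lower (5.84 and 5.49, a difference of -0.35). This made 3 lower and 0 higher of 14 members, beside 4.28% and 4.07% of all genes. Lefty2 and Nodal are counted here and in the epiblast list. In the BMP pathway, the ligand gene Bmp4 was at 6.10 on the empty vector array and 6.89 on the mouse PRDM14 array, a difference of 0.79, or 1.73-fold. It was at 5.69 and 5.74 on the sea urchin arrays, so it was high on the mouse PRDM14 array alone. Bmpr1a, a type I receptor gene for this ligand, was higher by 0.42 (5.20 and 5.62), with 5.45 and 5.55 on the sea urchin arrays. Smad1, a transducer of the signal, was lower by 0.27 (6.05 and 5.78), and Dusp9, a phosphatase gene induced by BMP signalling in stem cells, by 0.31 (6.90 and 6.58). The BMP list as a whole had 2 higher and 3 lower of 18 members and a median of -0.03. In the Wnt list, Tcf7l1, a repressor of Wnt targets (6.36 and 6.04), and the ligand gene Wnt8a (5.96 and 5.65) were lower and Ccnd1 was higher, of 27 members.

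Few genes of other lineages were past 1.2-fold. In the primitive endoderm list, 1 of 24 members was higher and 2 were lower, 5 lay above 0, and the median was -0.07. Gata4, a driver of that lineage, was at 6.53 and 6.29, Sox17 at 4.87 and 4.71, and Gata6 at 4.74 and 4.55, under the filter value. Dab2, an endocytic adaptor gene (5.04 and 4.67), and Hnf4a, a nuclear receptor gene (5.79 and 5.52), were past 1.2-fold downward. Sparc, an extracellular matrix gene that fibroblasts also express, was higher (6.68 and 7.05). In the neural list, Sox1 (5.24 and 4.89) and Olig2 (4.73 and 4.31) were lower of 14 members, with 4 above 0 and a median of -0.08, and Olig2 passed the filter through a sea urchin array. Stmn2, a neuronal tubulin-binding protein gene, was higher by 0.51 (7.35 and 7.86), with 7.18 and 7.17 on the sea urchin arrays. It is on the list of motor and early neuron genes, of which 12 passed the filter, 1 was higher and 1, Olig2, was lower, with a median of 0.03. Tead4, a factor that specifies trophoblast, was lower (6.92 and 6.63), the only one of 16 trophoblast genes past 1.2-fold. None of 16 primitive streak and mesoderm genes and none of 20 germ cell specification genes passed. Xist, the RNA of the inactive X chromosome, was at 3.36 and 3.31, under the filter value.

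**Figure D3:**
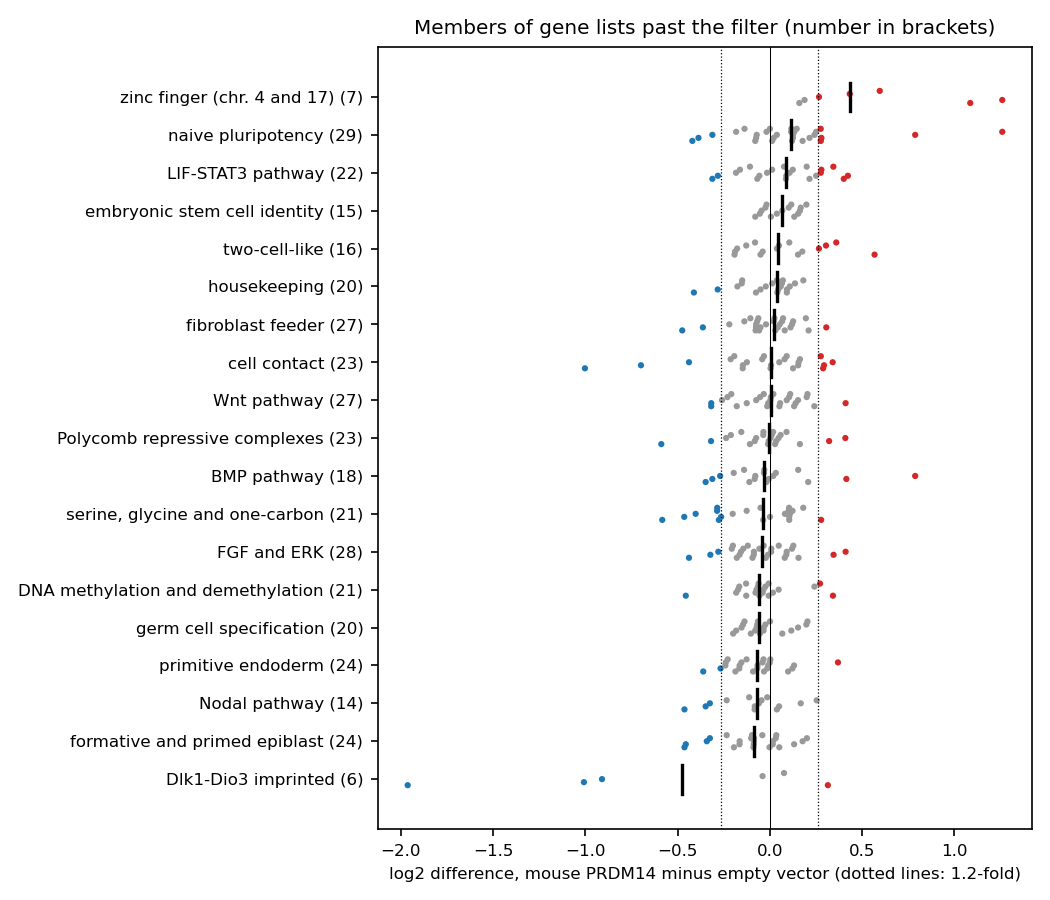
Each point is a list member past the filter and each bar the median of its list, with the log2 difference, mouse PRDM14 minus empty vector, on the x axis and the number of members in brackets. The medians drawn lie within 0.12 of 0 apart from the zinc finger list (0.43, with Zfp983 of chromosome 17 among its 7) and the Dlk1-Dio3 imprinted list (-0.47), dotted lines mark 1.2-fold, and members past it are red (higher) or blue (lower).

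The chromosome 4 zinc finger family held the largest differences among protein-coding genes. The family holds near-identical KRAB zinc finger genes, so that 1 probe set can read several of them and values of single members are uncertain. To show how alike the copies are, the windows from 250 bases before to 50 bases after the transcript start are given from RefSeq (GRCm38.p6) for the members past 1.2-fold that have an entry, with a 21-base run shared by all 4 in capitals.
Rex2, chr4:147021600-147021899, plus strand: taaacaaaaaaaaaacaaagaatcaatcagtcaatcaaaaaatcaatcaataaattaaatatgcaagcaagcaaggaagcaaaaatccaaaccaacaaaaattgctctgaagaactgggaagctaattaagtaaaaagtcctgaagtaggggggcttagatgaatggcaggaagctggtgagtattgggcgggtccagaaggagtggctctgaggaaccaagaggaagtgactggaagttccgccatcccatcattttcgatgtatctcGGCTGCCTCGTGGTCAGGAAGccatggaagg
Zfp979, chr4:147642459-147642758, minus strand: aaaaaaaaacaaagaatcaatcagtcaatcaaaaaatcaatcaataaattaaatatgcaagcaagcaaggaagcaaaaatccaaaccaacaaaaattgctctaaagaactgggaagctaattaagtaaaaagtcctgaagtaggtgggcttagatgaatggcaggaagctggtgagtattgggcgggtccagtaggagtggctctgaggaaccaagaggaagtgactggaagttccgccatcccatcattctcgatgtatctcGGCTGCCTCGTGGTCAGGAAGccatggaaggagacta
Zfp980, chr4:145670447-145670746, plus strand: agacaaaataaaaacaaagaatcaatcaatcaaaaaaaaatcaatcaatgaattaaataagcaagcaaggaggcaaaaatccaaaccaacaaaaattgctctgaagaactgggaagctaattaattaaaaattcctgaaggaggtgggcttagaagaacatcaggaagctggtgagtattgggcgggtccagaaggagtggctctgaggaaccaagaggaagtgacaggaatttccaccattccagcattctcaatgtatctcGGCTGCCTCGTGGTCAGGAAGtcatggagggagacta
Zfp981, chr4:146514670-146514969, plus strand: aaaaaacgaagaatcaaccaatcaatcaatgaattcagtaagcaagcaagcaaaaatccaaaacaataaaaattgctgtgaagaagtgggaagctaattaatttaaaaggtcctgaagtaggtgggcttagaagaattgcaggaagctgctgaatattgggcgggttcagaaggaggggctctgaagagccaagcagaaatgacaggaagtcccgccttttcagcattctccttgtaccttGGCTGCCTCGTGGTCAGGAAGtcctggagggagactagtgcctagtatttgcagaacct
Over the bases that aligned, the Rex2 window was 98.6% identical to that of Zfp979, 92.2% to that of Zfp980 and 85.2% to that of Zfp981. The window of Zfp984, also on chromosome 4, was 80.1% identical to that of Rex2. Zfp983, which is on the list but lies on chromosome 17, had a window only 53.2% identical to it.

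Rex2 was at 5.07 with empty vector and 6.33 with mouse PRDM14, a difference of 1.26, or 2.396-fold. It was higher still on the sea urchin arrays, at 6.70 and 7.004. Zfp992 was at 5.38 and 6.46, a difference of 1.09, with 6.19 and 6.56 on the sea urchin arrays. The empty vector array thus stood below the other 3 for both genes. Zfp979 was at 4.63 and 5.23 and Zfp980 at 4.71 and 5.15, differences of 0.60 and 0.43. Zfp981 differed by 0.27 (4.62 and 4.89) and was at 6.003 and 6.09 on the sea urchin arrays, so its order among the arrays was not that of Zfp979 (4.95 and 5.02 on the sea urchin arrays). These 3 genes were under the filter value on the empty vector array, where background pulls a fold toward 1. Of 9 list members of chromosome 4 on the array 6 passed the filter, 5 were 1.2-fold higher and none lower, with a median of 0.51. The sixth, Zfp984, differed by 0.19. The list also held 3 genes of chromosome 17, of which Zfp983 passed the filter and differed by 0.16. The 5 higher genes passed a filter that looks at the highest array, so their count is not support for a direction. Of the 3 probe sets of Zfp979, the other two differed by 0.02 and -0.28.

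The literature motif of PRDM14, GGTCTCTAA, was searched on both strands of the same windows. It was in 0.278% of the windows of genes past the filter (26 of 9344) and in 0.3% of all windows (81 of 27025). Of the 1.2-fold higher genes with a window, 1 of 347 held it (0.288%), the water channel gene Aqp6, and of the lower genes 0 of 385. A window of this size does not cover distal elements.

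**Figure D4:**
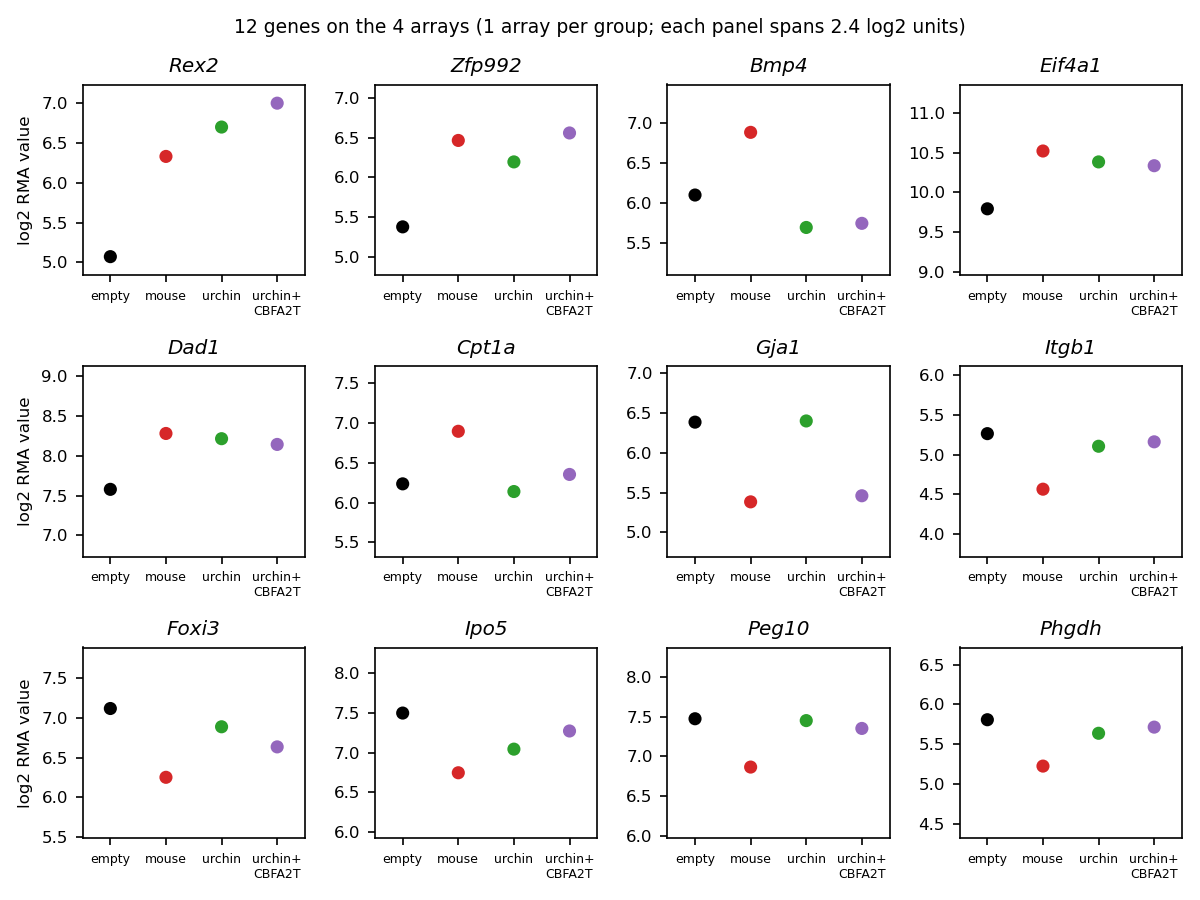
Each panel gives the log2 RMA value of 1 of 12 genes on each of the 4 arrays, as 1 point per array, with every panel spanning 2.4 log2 units. Bmp4 is high on the mouse PRDM14 array alone (6.89), Rex2 is low on the empty vector array alone (5.07), and Gja1 is low with mouse PRDM14 and with CBFA2T (5.38 and 5.46).

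Of 4 listed maternally expressed noncoding RNA genes of the Dlk1-Dio3 region on chromosome 12 that passed the filter, 3 were lower. The maternally expressed small nucleolar RNA AF357355 was at 6.95 with empty vector and 4.98 with mouse PRDM14, a difference of -1.96, or 3.90-fold. It was at 7.55 with sea urchin PRDM14 alone and 5.72 with CBFA2T added. AF357425, another small nucleolar RNA of the region, was at 6.64 and 5.73, with 6.90 and 6.06. Rian, the long noncoding host gene of such RNAs, was at 5.56 and 4.56, with 5.15 and 4.51 on the sea urchin arrays. For these 3, the mouse PRDM14 array and the array with CBFA2T were below the other pair. Meg3, the other long noncoding RNA gene of the region past the filter, did not follow, at 4.83 and 4.91. The paternally expressed gene Dlk1 was at 5.87 and 5.83. Both were named after their values were seen. Begain, a synaptic protein gene at the edge of the region, was higher (5.19 and 5.50). Of 9 list members on the array 6 passed the filter, 3 were lower and 1 higher, with a median of -0.47. This median was -0.91 with a stricter filter and -0.10 with no filter, so its size depends on which dim members are kept.

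Elsewhere among imprinted genes, the paternally expressed gene Peg10 was at 7.47 with empty vector and 6.87 with mouse PRDM14, with 7.45 and 7.35 on the sea urchin arrays. Peg10, a gene derived from a retrotransposon, was thus low on the mouse PRDM14 array alone. Peg3, a zinc finger gene, was lower by 0.27 (7.03 and 6.75). Mest and Copg2, neighbours on the same chromosome, differed in opposite directions (0.33 and -0.28). Of 19 members past the filter outside the Dlk1-Dio3 region, 1 was higher and 3 lower, with a median of -0.05. Rlim, an X-linked ubiquitin ligase gene that acts in X inactivation, was lower by 0.31 (6.66 and 6.35).

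Some cell contact genes were among the coding genes with the largest differences downward. Gja1, the connexin 43 gene of gap junctions, was at 6.39 with empty vector and 5.38 with mouse PRDM14, a difference of -1.003. With sea urchin PRDM14 alone it was at 6.40 and with CBFA2T added at 5.46, so the 4 arrays fell into a high and a low pair. Dsg2, a desmosomal cadherin gene, was at 5.72 and 4.94, with 5.08 and 4.89 on the sea urchin arrays. A second, dimmer probe set, under the filter value on all 4 arrays, differed by -0.22. Dsg2 was high on the empty vector array alone. Itgb1, the beta 1 integrin gene, was at 5.26 and 4.56, with 5.10 and 5.16, and was low on the mouse PRDM14 array alone, where it was under the filter value. Icam1, an adhesion receptor gene (5.54 and 5.88), Efna1, an ephrin ligand gene (5.85 and 6.14), and Tjp1, a tight junction scaffold gene (5.63 and 5.92), were higher. The list of 23 contact genes, which does not hold Dsg2, had 4 higher and 3 lower members, so it had no common direction.

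Other coding genes past 1.5-fold had varied roles. Among the lower ones, Foxi3, a forkhead factor gene, was at 7.12 with empty vector and 6.25 with mouse PRDM14, with 6.89 and 6.63 on the sea urchin arrays. Ipo5, a nuclear import receptor gene, was at 7.50 and 6.75, with 7.04 and 7.27. The mouse PRDM14 array was the lowest for both. Plin2, a lipid droplet coat protein gene, was at 6.56 and 5.90, with 5.71 and 5.84, and Clybl, a mitochondrial lyase gene, was at 5.90 and 5.27, with 5.47 and 5.12. For these genes the empty vector array stood above the other 3. Tmem47, a membrane protein gene of cell junctions, differed by -0.62 (6.62 and 5.99), and by -0.21 in its other probe set. Scarb2, a lysosomal membrane protein gene (-0.60), and Cts3, a cathepsin gene of a placental family (-0.62), were between 4.44 and 5.29 on the pair, near the filter value.

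Among the higher ones, Eif4a1, the RNA helicase gene of translation initiation, was at 9.79 and 10.52, with 10.38 and 10.33 on the sea urchin arrays. Its other probe set differed by -0.06, so the difference rests on 1 probe set. Dad1, a subunit gene of the oligosaccharyltransferase, was at 7.58 and 8.28, with 8.22 and 8.14. The empty vector array was the lowest for both. Tlcd1, a membrane lipid regulator gene, was at 8.23 and 8.86, but its other probe set differed by 0.00. Cpt1a, which brings fatty acids into mitochondria, was at 6.24 and 6.90, with 6.14 and 6.36 on the sea urchin arrays. Dgka, a diacylglycerol kinase gene, was at 5.18 and 5.84, with 5.41 and 5.45. Both were highest on the mouse PRDM14 array. Fblim1, a cell adhesion adaptor gene (0.68), Septin1, a cytoskeletal GTPase gene (0.66), and Rnf4, a SUMO-targeted ubiquitin ligase gene (0.63), were higher too. Gca, a calcium-binding protein gene, differed by 0.81 but was under the filter value on both arrays of the pair (3.99 and 4.80).

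In serine and one-carbon metabolism, 7 of 21 members were lower and 1 was higher, beside 4.28% and 4.07% of all genes. Phgdh, the first enzyme of serine synthesis, was at 5.81 with empty vector and 5.22 with mouse PRDM14, a difference of -0.58. It was at 5.64 and 5.71 on the sea urchin arrays, so it was low on the mouse PRDM14 array alone. The next enzymes of the same route, Psat1 (6.39 and 6.49) and Psph (5.25 and 5.34), were within 1.2-fold, and are named here for their place in the route after their values were seen. Ahcy, which clears the product of methylation reactions, was at 6.50 and 6.04, a difference of -0.46, but a second probe set differed by 0.14 in the other direction. Cth, an enzyme of cysteine synthesis, differed by -0.40 (6.19 and 5.79), with 5.57 and 5.18 on the sea urchin arrays. The folate enzymes Shmt1 and Aldh1l1 both differed by -0.29 and the glycine cleavage gene Amt by -0.28. Aldh1l1 (4.89 and 4.61) passed the filter only through the empty vector array, so its place among the 7 is no support for a direction. Slc1a5, a glutamine and neutral amino acid transporter gene, was higher (0.28 in one probe set and 0.42 in the other). Tyms, which makes thymidylate, was at -0.26, just past the threshold. Tyms with cyclic loess and Ahcy with the mean of its probe sets were within 1.2-fold. The median of the list was -0.04, and the other 13 members were within 1.2-fold.

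In cholesterol synthesis, 2 of 18 genes were higher and 2 lower. Fdft1, the squalene synthase gene, was at 6.74 and 7.21, and Dhcr7, the last reductase of the route, at 5.69 and 6.01. Mvk, the mevalonate kinase gene (6.03 and 5.66), and Cyp51, a sterol demethylase gene (5.38 and 5.04), were lower. In glycolysis and hypoxia, Pfkp, a phosphofructokinase gene, was higher (0.32) and the hypoxia-induced genes Ddit4 (-0.32) and Adm (-0.35) were lower, of 25 members. Among 20 genes of amino acid stress and unfolded protein, Nupr1 was higher (0.27) and Cth lower. The p53 targets Pmaip1, which promotes apoptosis (6.48 and 6.02), and Plk2, a kinase gene (5.10 and 4.70), were lower, of 17 members. Of 12 interferon response genes, Bst2, an antiviral membrane protein gene (6.29 and 5.88), and Irf7 (5.77 and 5.44) were lower and Ifit3 was higher (4.58 and 4.89). Ifit3 passed the filter only through the mouse PRDM14 array. Of 26 proliferation genes, Tyms alone was past 1.2-fold. Housekeeping genes were not wholly level either: Rplp0, a ribosomal protein gene, differed by -0.41 in one probe set and by -0.00 in the other, and Ipo8, an import receptor gene, by -0.28, of 20 members.

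A few genes of the 2-cell embryo were higher, most of them dim on both arrays of the pair. Zscan4c, a zinc finger gene of that stage and of rare stem cells in culture, was at 5.10 with empty vector and 5.67 with mouse PRDM14, a difference of 0.57. It was at 5.36 with sea urchin PRDM14 alone and 7.27 with CBFA2T, so the mouse PRDM14 array was far below the highest. Zscan4b (4.26 and 4.56), Pramel19 (3.81 and 4.17) and Usp17le (4.07 and 4.33) were under the filter value on both arrays of the pair and passed it through the CBFA2T array. Of 16 members past the filter 4 were higher and 0 lower, beside 4.07% and 4.28% of all genes. Above 0 lay 9 of the 16, and the median was 0.04, so the list as a whole hardly shifted. Pnldc1, a germline gene that DNA methylation silences in somatic cells, was lower (4.95 and 4.38), the only one of 8 such genes past 1.2-fold. Pnldc1 passed the filter only through the empty vector array, so its call is no support for a direction.

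Over all 35 lists, 564 distinct genes passed the filter. Of these, 38 (6.74%) were 1.2-fold higher and 54 (9.57%) lower, beside 4.07% and 4.28% of all genes. The lists include genes that had already been seen to differ, so the larger shares only describe the lists.

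Small nucleolar RNAs were past 1.2-fold more often than coding genes, a contrast that was chosen, as were the examples, after the values were seen. Many RNAs of this class guide the modification of ribosomal RNA. Of 60 small nucleolar RNA genes past the filter, 31 (51.7%) were 1.2-fold higher and 5 (8.33%) lower, with a median of 0.27. AF357355 and AF357425 of the Dlk1-Dio3 region, described above, are among the 5 lower ones. Of 10939 coding genes, 3.60% were higher and 4.26% lower. Snora23 was at 5.37 with empty vector and 6.80 with mouse PRDM14, with 5.95 and 5.99 on the sea urchin arrays. Snord22, a bright member, was at 9.04 and 9.9999, with 9.72 and 9.45. The empty vector array was the lowest of the 4 for 34 of the 60, and the mouse PRDM14 array the highest for 29. The small cytoplasmic Y RNAs Rny1 (7.59 and 8.63) and Rny3 (5.90 and 6.76) and the Cajal body RNA Scarna6 (7.05 and 7.90) were higher as well. Malat1, an abundant nuclear long noncoding RNA, was at 7.36 and 7.95, with 7.21 and 7.18 on the sea urchin arrays. RNA integrity and the recovery of short RNAs were not measured in the files used here, and their part in these differences was not tested.

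**Figure D5:**
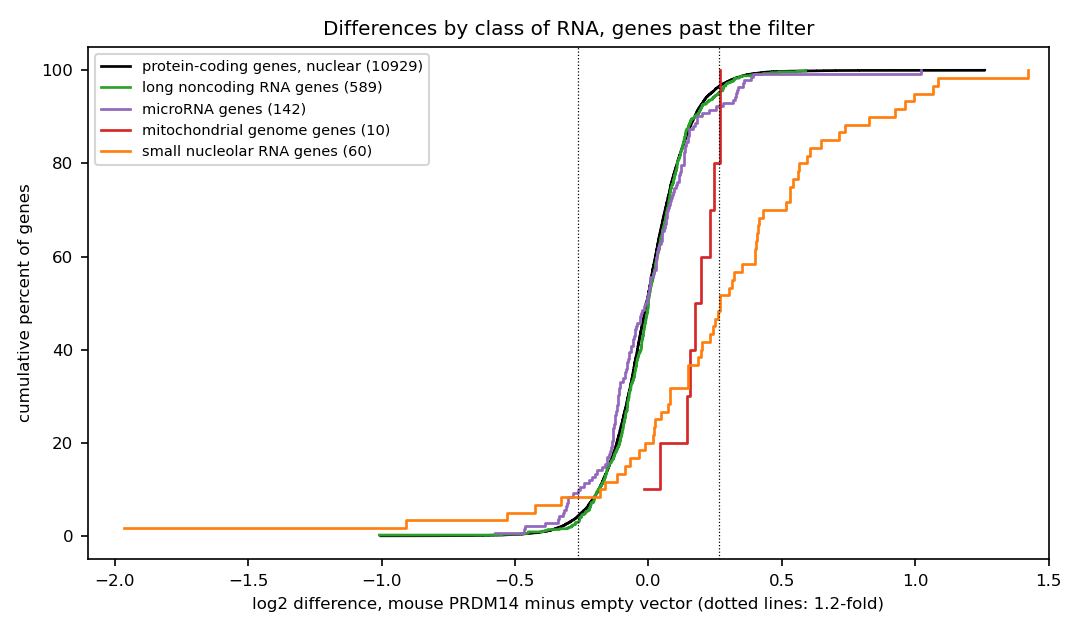
Cumulative percent of genes past the filter (y axis) against the log2 difference, mouse PRDM14 minus empty vector (x axis), with 1 line per class of RNA, the number of genes in brackets and dotted lines at 1.2-fold. The line of the 60 small nucleolar RNA genes lies to the right of the coding line, with a median of 0.27.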

How the data were processed

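Total RNA of mouse embryonic stem cell cultures was measured on 4 arrays of strip 2, with 1 array per group. The values are log2 values that the authors made with RMA, per the submitters' processing notes, and deposited. RMA corrects background, equalises the arrays' distributions and summarises the probes of a probe set, so a shift shared by most genes would not show. The version of RMA, the set of arrays normalized in 1 run and the build are, in the sources used here, not stated. RMA values carry no detection call, and the depth of an array is not a count. The number of arrays limits the precision.

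Genes came from the platform annotation, and 23328 of the 23521 probe sets with 1 gene had their Entrez identifier in RefSeq's GRCm38.p6 table, with 0 symbols updated. That table gave biotypes, chromosomes and gene order, and RefSeq gave the promoter windows. Where a gene had several probe sets, the one brightest on average was used. It was kept when its highest array reached 4.84, the median of all named values, which lets a gene pass through 1 array. Differences were mouse PRDM14 minus empty vector, sorted at 1.2-fold, 1.5-fold and 2-fold. No test was possible with 1 array per group.

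The comparison, the 35 gene lists and their members were chosen with earlier results of these data known. Named were Prdm14, a fixed set of genes known for PRDM14, and up to 6 list members per direction past 1.2-fold. In lists with no member past 1.2-fold, the member with the largest difference was not named. The 15 largest differences in each direction, without predicted genes, small RNAs and receptor families by symbol, were named too. Fibroblast genes within 1.2-fold were named from a list of cell type markers. Zfp983, Zfp984 and Aqp6 were named after their values were seen, as were others where the text says so. Percent identity was over aligned bases of the windows. The alternatives were no filter, a stricter filter at 5.65, a filter on the mean of the 4 arrays, cyclic loess, the mean of all probe sets, leaving out predicted genes, small RNAs and receptor families, and leaving out the feeder list. The calculations were tested on simulated data. The software was R 4.3.3 with limma 3.58.1 and Python 3.11.15 with biopython 1.88, matplotlib 3.10.9, numpy 2.4.6, pandas 2.3.3 and scipy 1.17.1.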

Additional observations from a re-analysis of the deposited data

Results flagged for a closer look

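Probe sets that the comparisons above do not use held large differences as well. Of 16010 probe sets with no gene in the annotation, 5567 passed the filter, and with mouse PRDM14 73 of them were higher and 52 lower by 2-fold or more. That is 2.25% of them, and their differences had an SD of 0.349, beside 0.157 for named genes. What these probe sets measure was not analysed here. Of the 893 probe sets past the filter that are paired with several genes, 1 was at least 2-fold higher and 0 were lower.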

How the results depend on the processing

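The counts, list medians and named genes were recomputed under 7 alternatives. Of 42 counts 35 stayed within 1.5 times, of 244 list medians 239 stayed within 0.1, and none of 131 named genes changed direction. Only cyclic loess and the mean of all probe sets alter a gene's difference, the latter only for genes with several probe sets. The other settings only keep or drop genes, so under them no named gene could change direction. With no filter, 812 genes were 1.2-fold higher and 846 lower, and the median of the Dlk1-Dio3 list was -0.10. With the stricter filter, which keeps 6377 genes, 292 were 1.2-fold higher and 286 lower, and 13 were 1.5-fold lower. Under it the medians were -0.0884 for motor and early neuron genes, 0.13 for silenced germline genes, -0.91 for Dlk1-Dio3 genes and 0.68 for the zinc finger list. Leaving out predicted genes, small RNAs and receptor families left 19 genes 1.5-fold higher and 3 genes 2-fold higher. Fewer genes were tested in the last of these settings, and more with no filter. After cyclic loess Hnf4a (-0.26) and Tyms (-0.26) were within 1.2-fold, as were Ahcy (-0.16), Pim1 (0.19) and Rplp0 (-0.21) with the mean of all probe sets. The median kept its sign under every alternative in 26 of 35 lists. The 9 others were Polycomb, PRDM14 partners, streak and mesoderm, motor and early neuron, silenced germline, amino acid stress, glycolysis, interferon and feeder genes. Of 34 genes past 1.2-fold with several probe sets past the filter, 23 had the same direction in each and 8 were past 1.2-fold in each. No paired analysis was possible because each group had 1 array, and for the same reason no replicate could be left out.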

Other observations

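Mitochondrial genes encoded by the mitochondrial genome were slightly higher with mouse PRDM14, with a median of 0.19 over 10 genes and 9 of them above 0. The empty vector array was the lowest of the 4 for 9 of the 10. These genes, and the regions below, were chosen after their values were seen.

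A stretch of neighbouring genes on chromosome 14, from Rpph1 to Nynrin, held 72 genes past the filter. Of these, 8 were 1.2-fold higher and 0 lower, beside 4.07% and 4.28% of all genes, and the median was 0.07. Rpph1 and Nynrin, the ends of the stretch, are themselves among the 8, so the count is no support for a shift of the region. The medians of the other arrays against the same empty vector array were 0.07 and 0.08. Its genes include Prmt5, the symmetric arginine methyltransferase gene of germ and stem cells, at 7.52 with empty vector and 8.12 with mouse PRDM14 (8.15 and 8.37 on the sea urchin arrays). Supt16, a histone chaperone gene of the FACT complex, was at 6.54 and 6.97 (7.17 and 7.12). Zfp219, a zinc finger gene, was at 5.59 and 5.99 (5.91 and 6.21), and Dad1 was described above. For these genes the empty vector array was the lowest of the 4. Nynrin, at 5.77 and 6.23, was at 5.62 and 5.50 on the sea urchin arrays, so the mouse PRDM14 array alone was high.

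By chromosome, beside 4.07% higher and 4.28% lower over all genes, 22 of 300 genes of chromosome X were 1.2-fold higher (7.33%) and 12 lower (4.0%). On chromosome 14, 29 of 402 were higher (7.21%) and 14 lower (3.48%). On chromosome 19, 26 of 423 were higher (6.15%) and 9 lower (2.13%). On chromosome 18, 8 of 268 were higher (2.99%) and 21 lower (7.84%).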
